A study of Mus musculus with 6 samples.

Results

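The RNA of 9 mouse genes linked to the clearance of dying cells by macrophages was followed here. They are the TAM receptor kinases Tyro3, Axl and Mertk, their ligands Gas6 and Pros1, and the bridging protein Mfge8. The receptors Timd4 and Lrp1 and the engulfment adaptor Elmo1 complete the set. Clearance itself and protein levels were not measured in these libraries. The genes were chosen by name, among 54532 in the deposited count table, and all 9 were found in it. Earlier results of these data were known at that choice, so counts of members called are descriptions. RNA had been sequenced from bone-marrow-derived macrophages, phagocytes raised in culture from marrow cells, of mice labelled Tet2 knockout (3 knockout-labelled libraries) or wild-type (3 wild-type-labelled libraries). Cells of both groups had been treated with monosodium urate (MSU), the crystal of gout, so the effect of MSU itself was not analysed here. Tet2 is a dioxygenase that converts 5-methylcytosine of DNA to oxidised forms. The labels give neither the allele, a Cre driver, the age or sex of the mice, nor the dose and duration of MSU, and do not say whether replicates are separate animals or cultures. P-values therefore reflect the spread of these 3 and 3 libraries alone, and that spread may be technical.

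In efferocytosis, the removal of dying cells, phosphatidylserine exposed on the dying cell is read either directly by receptors such as Timd4 or through soluble proteins that bridge it to the phagocyte. Gas6 and Pros1 (protein S) link phosphatidylserine to the TAM kinases, and Mfge8 links it to the integrins alpha-v-beta-3 and alpha-v-beta-5. Lrp1 binds calreticulin on the dying cell, and Elmo1, with its partner Dock1, activates the GTPase Rac1 that remodels actin around the corpse. Mertk is the TAM receptor best known for engulfment by macrophages, and signals of TAM receptors also restrain innate immune responses.

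Total counts per library ran from 11997104 to 14481843. Tet2 itself was called higher, not lower, in the knockout-labelled libraries, at 33.7 ± 0.799 CPM against 29.3 ± 1.41 CPM (SD, n = 3 each; log2 change 0.20; edgeR adjusted p = 0.0159, not passed in 5 of 16 alternatives). A count over all exons need not show a partial deletion, and exons were not counted singly. The Tet2 count therefore does not bear out the knockout labels, and whether they are right was not tested. Directions follow the labels: higher means higher in the knockout-labelled libraries. CPM are counts per 1000000 after TMM scaling, which adjusts for library size and composition. Of the 8 macrophage markers (Adgre1, Csf1r, Cd68, Itgam, Lyz2, Fcgr1, Mrc1, Cd14) all were tested, 4 rose and 3 fell, with a summed level of 6836 to 7106 CPM in the knockout-labelled libraries and 6564 to 6982 CPM in the wild-type-labelled ones. Fibroblast markers were also abundant: their summed level was 6520 to 6681 CPM against 6785 to 7261 CPM, 1 of 8 rose (Col3a1) and 4 fell. Rose and fell mean an edgeR adjusted p under 0.05, and 21.6% of all tested genes rose and 19.2% fell. Markers of lymphoid cells summed to at most 0.351 CPM and those of neutrophils to at most 1.66 CPM in any library. Dendritic cell markers summed to 8.63 to 10.1 CPM against 5.61 to 7.91 CPM, endothelial markers to 40.0 to 41.4 CPM against 33.4 to 37.9 CPM, and osteoclast markers to 83.5 to 86.0 CPM against 88.8 to 94.3 CPM. Erythroid and megakaryocyte markers, nearly all Pf4, summed to 123 to 128 CPM against 109 to 127 CPM, and mast cell and basophil markers to at most 2.88 CPM. Ly6g, Retnlg, Cd3g, Nkg7, Mcpt4, Tpsb2 and Fcer1a were at 0 in all 6 libraries.

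The DNA just before the start sites of Mertk, Lrp1 and Gas6, the genes with the largest rises described below, and of Axl, a receptor that shares its ligand with Mertk and moved little, is shown for reference. Each sequence is the 250 bases before the RefSeq start site (GRCm38.p6), printed 5′ to 3′ on the strand of the gene, with CpG dinucleotides, where most DNA methylation of mammals occurs, in capitals. Mertk lies at chr2:128698665-128698914 (plus strand), Axl at chr7:25788734-25788983 (minus), Gas6 at chr8:13494536-13494785 (minus) and Lrp1 at chr10:127621149-127621398 (minus).
Mertk: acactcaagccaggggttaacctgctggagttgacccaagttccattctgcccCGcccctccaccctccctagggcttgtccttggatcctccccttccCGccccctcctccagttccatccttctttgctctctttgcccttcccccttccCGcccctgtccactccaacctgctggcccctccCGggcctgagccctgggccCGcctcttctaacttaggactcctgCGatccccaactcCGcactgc
Axl: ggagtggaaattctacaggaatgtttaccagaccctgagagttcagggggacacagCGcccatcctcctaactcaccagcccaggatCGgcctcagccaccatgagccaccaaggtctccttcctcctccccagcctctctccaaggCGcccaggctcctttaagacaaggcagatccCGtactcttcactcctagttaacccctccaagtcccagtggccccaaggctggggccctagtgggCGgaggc
Gas6: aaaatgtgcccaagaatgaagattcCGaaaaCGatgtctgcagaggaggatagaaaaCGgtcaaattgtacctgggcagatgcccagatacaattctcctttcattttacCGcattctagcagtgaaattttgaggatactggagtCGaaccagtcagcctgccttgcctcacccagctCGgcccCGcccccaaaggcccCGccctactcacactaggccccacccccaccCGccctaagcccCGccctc
Lrp1: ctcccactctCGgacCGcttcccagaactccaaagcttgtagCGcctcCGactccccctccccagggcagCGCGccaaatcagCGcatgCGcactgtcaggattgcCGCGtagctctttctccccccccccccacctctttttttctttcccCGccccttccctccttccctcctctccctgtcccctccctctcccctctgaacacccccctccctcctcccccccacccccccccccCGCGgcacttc

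These windows held 7 CpGs for Mertk, 5 for Axl, 10 for Gas6 and 13 for Lrp1, against a median of 6 (quartiles 2 and 16) over 32851 such windows of mouse genes. RefSeq start sites gave 10 windows for the 9 genes, since Elmo1 has 2. On either strand, the GC box GGGCGG was in 8 of the 10 windows and in 32.7% of all windows. The 8 windows with it had a GC content of 54.8 to 73.2%, above the median of 52.4% over all windows. The Timd4 window and the downstream Elmo1 window, which lacked it, were below that median. The part of GC content in this contrast was not tested. The STAT-type motif TTCNNNGAA was in 3 of the 10 (Lrp1, Pros1 and the downstream Elmo1 window) and in 7.02% of all. The liver X receptor type repeat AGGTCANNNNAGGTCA, carried by 0.0152% of all windows, and the interferon-response type motif GAAANNGAAA, carried by 2.98%, were in none of the 10. A match describes letters in the window, not binding, and methylation was not measured in these libraries.

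Mertk, Lrp1, Gas6 and Elmo1 rose clearly in the knockout-labelled libraries, Pros1 rose slightly, and Axl and Mfge8 hardly moved. Of the 8 members with enough reads to be tested, 7 passed an edgeR adjusted p of 0.05, 6 of them higher and 1 lower, where 40.9% of all 13175 tested genes passed (21.6% higher and 19.2% lower). Timd4 had too few reads for the filter. The median log2 change of the 8 tested members was 0.27 and that of all tested genes -0.0031. Libraries of the groups did not overlap for any of the 8, as for 47.8% of all tested genes. The spread between libraries of a group was very small (a common biological coefficient of variation of 2.63%). Mitochondrially encoded genes took 0.349 to 0.366% of counts in the knockout-labelled libraries and 0.240 to 0.275% in the wild-type-labelled ones, and the part of this difference in the members' changes was not tested. When a coefficient of 0.1 was assumed instead, 14.3% of tested genes passed, and of the members Mertk, Lrp1, Gas6 and Elmo1 did.

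**Figure D1:**
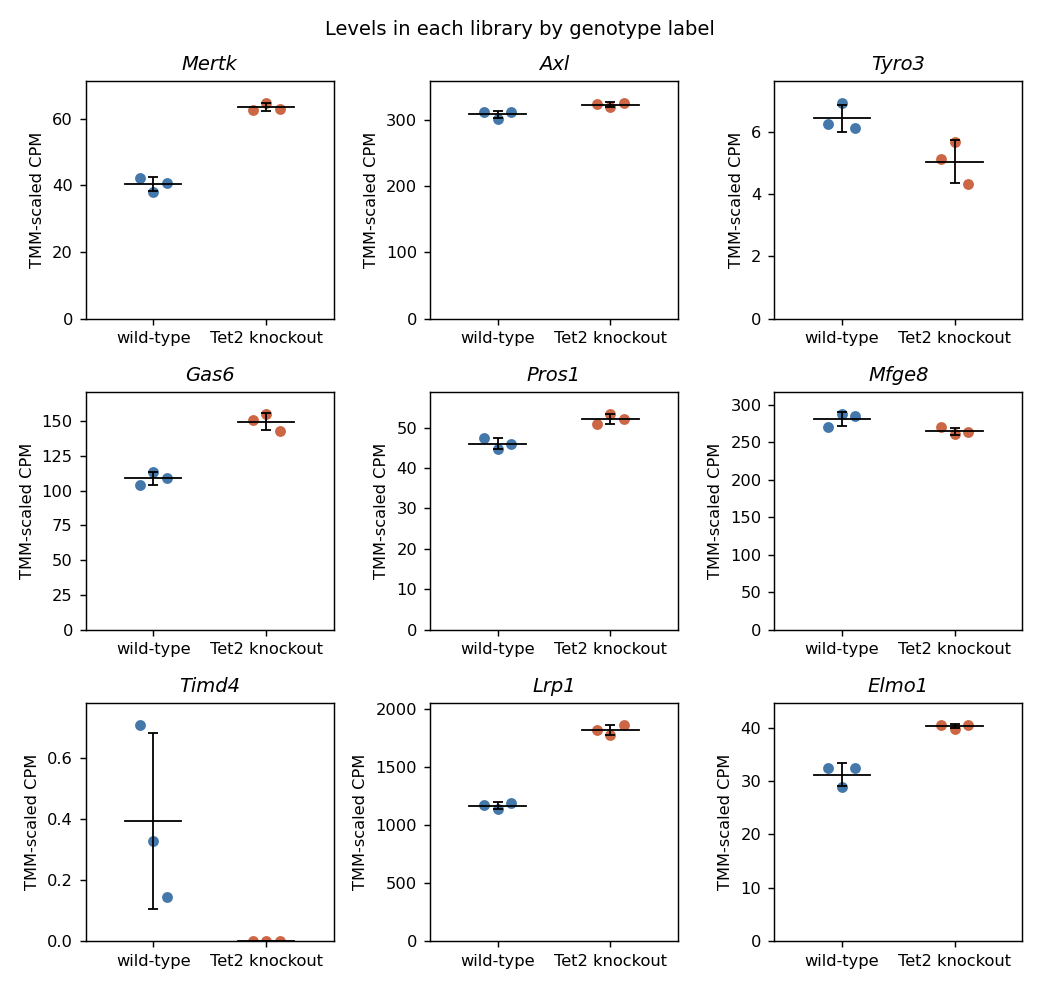
Each panel shows 1 gene as TMM-scaled CPM (vertical axis, from 0) in the 3 libraries labelled wild-type (blue) and the 3 labelled Tet2 knockout (orange), with the mean as a line and the SD as a bar. Mertk (38.1 to 42.1 CPM against 62.5 to 64.8 CPM) and Lrp1 (1134 to 1191 CPM against 1778 to 1861 CPM) separate widely, while the groups of Axl and Mfge8 lie close together.

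Among the TAM receptors, Mertk (ENSMUSG00000014361, mm10 chromosome 2, 128698956 to 128802894, plus strand) changed the most. Its level was 62.5, 64.8 and 63.0 CPM in the knockout-labelled libraries and 42.1, 38.1 and 40.8 CPM in the wild-type-labelled ones, from raw counts of 890, 912 and 832 against 592, 462 and 567. The lowest knockout-labelled library thus stood well above the highest wild-type-labelled one. The difference was a log2 change of 0.65 (SE 0.06; edgeR adjusted p = 5.04e-19), or 1.57-fold, and 6.97% of tested genes changed by more in either direction. An antisense gene, Gm14011, overlaps Mertk but took at most 2 counts in any library.

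Axl (ENSMUSG00000002602, chromosome 7, 25757273 to 25788705, minus strand), a TAM kinase that responds to Gas6 and is typical of inflamed macrophages, was at 324, 319.9 and 326 CPM in the knockout-labelled libraries and 312, 302 and 312 CPM in the wild-type-labelled ones. The groups did not overlap, but the gap between them was small. The log2 change was 0.07 (SE 0.03; 95% interval 0.01 to 0.12; edgeR adjusted p = 0.0487), and 78.0% of tested genes changed by more. This call was lost in 13 of 16 alternatives, among them DESeq2 (adjusted p = 0.131), RLE scaling (edgeR adjusted p = 0.0664) and the removal of any 1 library (edgeR adjusted p from 0.0724 to 0.165), and ranged up to 0.785 with the assumed spread.

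Tyro3 (ENSMUSG00000027298, chromosome 2, 119797733 to 119818104, plus strand), the TAM kinase best known from the nervous system, was scarce, with 57 to 80 raw counts in the knockout-labelled libraries and 84 to 88 in the wild-type-labelled ones. Its levels were 5.12, 5.68 and 4.31 CPM against 6.25, 6.93 and 6.11 CPM. All 3 knockout-labelled libraries were below all 3 wild-type-labelled ones, yet the difference did not pass (log2 change -0.34, SE 0.16; 95% interval -0.66 to -0.03 before adjustment; edgeR adjusted p = 0.0728, and 0.0506 to 0.275 over 16 alternatives).

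The ratio of Axl to Mertk was lower in every knockout-labelled library than in any wild-type-labelled one. Like the ratio of Gas6 to Pros1 given below, it is built from the same counts as the changes of the single genes. It is therefore not a further result. Per kilobase of gene model, Axl exceeded Mertk 4.47, 4.25 and 4.47 times in the knockout-labelled libraries and 6.39, 6.82 and 6.58 times in the wild-type-labelled ones. The log2 ratio differed by -0.59 (means 2.14 ± 0.04 and 2.72 ± 0.05, SD, n = 3 each; exact permutation p = 0.1, two-sided, the smallest that 3 against 3 allows). Mertk made up 18.4 ± 0.40% of the summed RPKM of the 3 receptors in the knockout-labelled libraries and 13.0 ± 0.388% in the wild-type-labelled ones (SD, n = 3 each). Axl made up 80.6 ± 0.521% and 85.6 ± 0.286%, and Tyro3 1.02 ± 0.144% and 1.45 ± 0.130%. RPKM are these CPM divided by the deposited gene length in kilobases. With the mean length of protein-coding transcripts in its place, Mertk made up 11.6 ± 0.276% and 8.01 ± 0.252%, and Axl exceeded Mertk 7.54 ± 0.210 and 11.3 ± 0.376 times (SD, n = 3 each), so the sizes of the shares depend on the length used, while the log2 difference between the groups does not.

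**Figure D2:**
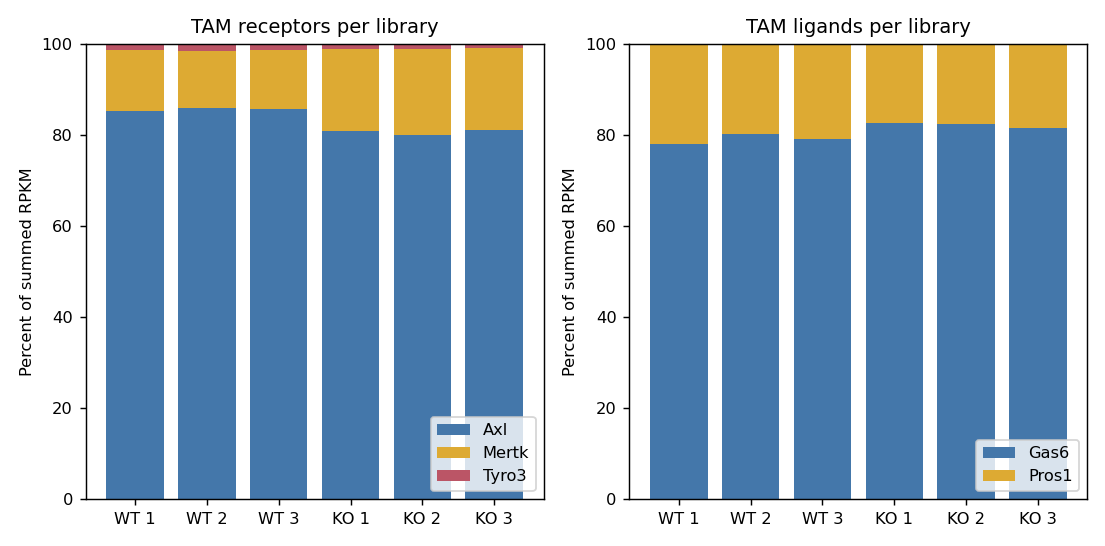
Bars give, for each library (WT, labelled wild-type; KO, labelled Tet2 knockout), the percent of summed RPKM held by each TAM receptor (left) and each TAM ligand (right). Axl holds most of the receptor sum and Gas6 most of the ligand sum in all 6 libraries, and the Mertk segment is larger in the 3 KO bars.

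Of the TAM ligands, Gas6, which activates all 3 receptors, rose more than Pros1. Gas6 (ENSMUSG00000031451, chromosome 8, 13465374 to 13494490, minus strand) was at 151, 155 and 143 CPM in the knockout-labelled libraries and 104, 114 and 109 CPM in the wild-type-labelled ones. The groups were well apart, with a log2 change of 0.46 (SE 0.04; edgeR adjusted p = 1.88e-19), and 13.9% of tested genes changed by more. Tmem255b overlaps Gas6 on the opposite strand and took at most 2 counts in any library.

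Pros1 (ENSMUSG00000022912, chromosome 16, 62854307 to 62929346, plus strand), which signals through Mertk and Tyro3 and is also an anticoagulant cofactor, was at 50.8, 53.4 and 52.2 CPM against 47.3, 44.7 and 46.0 CPM. Its 3 knockout-labelled libraries were the higher ones by a small margin (log2 change 0.18, SE 0.06; edgeR adjusted p = 0.00689), and 47.6% of tested genes changed by more. Of the 16 alternatives only the assumed spread ended this call (edgeR adjusted p = 0.392). Gas6 exceeded Pros1 per kilobase 4.76, 4.67 and 4.39 times in the knockout-labelled libraries and 3.54, 4.08 and 3.80 times in the wild-type-labelled ones, a log2 difference of 0.28 (means 2.20 ± 0.06 and 1.93 ± 0.10, SD, n = 3 each; exact permutation p = 0.1, two-sided, again the smallest possible).

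Mfge8 (ENSMUSG00000030605, chromosome 7, 79133768 to 79149060, minus strand), the bridge to alpha-v integrins, was the 1 called lower among the 8 tested members, by a small amount. It was at 270.1, 261 and 263 CPM in the knockout-labelled libraries and 270.1, 288 and 285 CPM in the wild-type-labelled ones. The highest knockout-labelled and the lowest wild-type-labelled library were practically equal. The log2 change was -0.08 (SE 0.03; edgeR adjusted p = 0.0179), and 73.0% of tested genes changed by more. It no longer passed without knockout replicate 2 (edgeR adjusted p = 0.0970) or 3 (0.0682), without wild-type replicate 3 (0.0711), after trends with GC content and length were taken out (0.0572) and under the assumed spread (0.722). Mfge8, Gas6, Axl and Lrp1 are also expressed by fibroblasts, and the fibroblast marker Col1a1 stood at 3195 ± 44.0 CPM against 3453 ± 163 CPM and Dcn at 66.7 ± 3.54 CPM against 79.2 ± 1.74 CPM (SD, n = 3 each). Of the other fibroblast markers Col1a2 (-0.09) and Lum (-1.15) fell by log2 change, Col3a1 rose (0.11), and the test was not passed by Thy1 (-0.16), Pdgfrb (-0.05) or Pdgfra (-0.04). The part of fibroblast RNA in the levels of these genes was not tested, and in bulk RNA fewer cells of a type and less RNA per cell cannot be told apart.

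Lrp1 (ENSMUSG00000040249, chromosome 10, 127538161 to 127621148, minus strand), a large endocytic receptor, was the most abundant member. It was at 1817, 1778 and 1861 CPM in the knockout-labelled libraries and 1170, 1134 and 1191 CPM in the wild-type-labelled ones, from 24591 to 25888 raw counts against 13748 to 16565. Its groups were far apart, and it had the smallest p of the 8 tested members (log2 change 0.64, SE 0.02; edgeR adjusted p = 8.95e-48). The smallest log2 change over 16 alternatives was 0.50, after trends with GC content and length were taken out. The other alternatives gave 0.62 to 0.66. An antisense gene within Lrp1, Gm16217, took at most 8 counts in any library. The macrophage markers Adgre1 (F4/80) and Csf1r rose by amounts of the same order in these libraries, with log2 changes of 0.78 (SE 0.02) and 0.55 (SE 0.02). Mrc1 rose by more (1.06) and Fcgr1 by less (0.20). Lyz2, which can share reads with its copy Lyz1, fell (-0.47), as did Cd14 (-0.18) and Cd68 (-0.09), and Itgam did not pass (-0.02). Whether the makeup of the cultures took part in the rises of Lrp1 and Mertk was not tested.

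Timd4 (ENSMUSG00000055546, chromosome 11, 46810800 to 46844332, plus strand), a phosphatidylserine receptor of resident tissue macrophages, was close to absent. It had 10, 4 and 2 counts in the wild-type-labelled libraries and 0 in each knockout-labelled library. Over the wild-type group that is 16 counts, or 0.404 counts per 1000000 (95% exact Poisson interval 0.231 to 0.656, counting error only). Against the limit of 3 counts over the knockout group, it was at least 5.69-fold lower there if the wild-type count is taken as measured, and 3.25-fold lower from the lower end of its interval. Without wild-type replicate 1, which held most of the counts, the first of these was 3.28-fold. With no filter on low counts, where 20.6% of 24337 genes passed, Timd4 had an edgeR adjusted p of 0.00134.

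Elmo1 (ENSMUSG00000041112, chromosome 13, 20090596 to 20608353, plus strand) was at 40.5, 39.8 and 40.4 CPM in the knockout-labelled libraries and 32.3, 28.8 and 32.4 CPM in the wild-type-labelled ones. The former lay close together and above all of the latter (log2 change 0.36, SE 0.07; edgeR adjusted p = 2.07e-06), and 20.1% of tested genes changed by more. The call held in all 16 alternatives, with an edgeR adjusted p of 0.0372 under the assumed spread. An antisense gene, Gm32036, overlaps Elmo1 and took at most 2 counts.

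**Figure D3:**
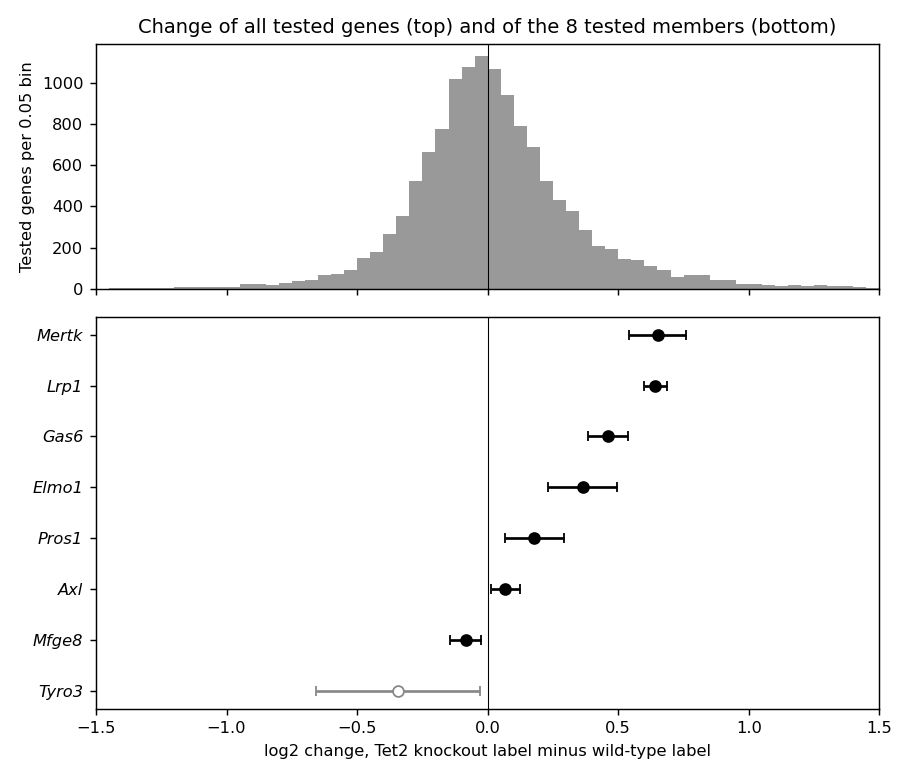
The upper panel counts tested genes by log2 change (bins of 0.05, the few genes beyond the axis not drawn), and the lower panel gives the log2 change of the 8 tested members with its 95% interval before adjustment, filled where the edgeR adjusted p was under 0.05. Mertk (0.65) and Lrp1 (0.64) lie furthest to the right, Axl (0.07) and Mfge8 (-0.08) near 0, and Tyro3 (-0.34) has the widest interval.

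Levels of different genes can be set side by side only per length. In the libraries labelled wild-type the order by RPKM was Lrp1 (65.8 ± 1.62), Axl (61.3 ± 1.12), Mfge8 (59.8 ± 2.02), Gas6 (42.8 ± 1.82), Pros1 (11.3 ± 0.317), Mertk (9.30 ± 0.463), Elmo1 (2.48 ± 0.165), Tyro3 (1.04 ± 0.0706) and Timd4 (0.182 ± 0.133; SD, n = 3 each). Axl and Mfge8 overlapped there, and the other neighbours did not. In the knockout-labelled libraries Lrp1 reached 103 ± 2.35, Axl 64.2 ± 0.653, Gas6 58.8 ± 2.46 and Mfge8 56.4 ± 0.981 RPKM (SD, n = 3 each), and of these neighbours Gas6 and Mfge8 overlapped. Mertk (14.6 ± 0.282) stood above Pros1 (12.8 ± 0.320) in this group, the reverse of the order in the other. With the mean length of protein-coding transcripts in GENCODE M21 in place of the deposited gene length, Mfge8 came before Axl, Elmo1 before Pros1, and Pros1 before Mertk in both groups, so these positions depend on the length used.

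**Figure D4:**
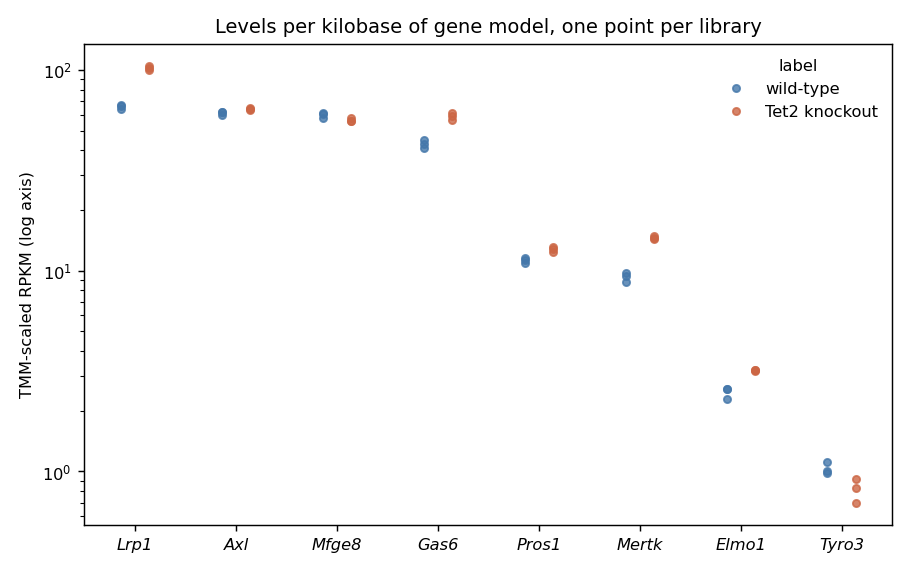
Each point is 1 library, with TMM-scaled RPKM on a log axis, for the 8 tested members in the order of their mean in the wild-type-labelled libraries (blue; Tet2 knockout label in orange). Lrp1, Axl, Mfge8 and Gas6 lie at 41.0 RPKM or higher in all 6 libraries, and Tyro3 lies near 1.

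The lists that follow are to be read against all tested genes, of which 21.6% rose, 19.2% fell and 14.3% passed under the assumed spread. Like the members, these lists were chosen with earlier results of these data known, so their counts are descriptions. Of 18 other receptors for dying cells 14 were tested, 10 of them (71.4%) rose, 3 (21.4%) fell and Itgb5 did not pass (median log2 change 0.22). Stab1, a scavenger receptor that binds phosphatidylserine, went from 173 ± 4.0 to 469 ± 8.43 CPM, the integrin subunit Itgav, which pairs with the beta chains that Mfge8 engages, from 331 ± 1.91 to 449 ± 4.99 CPM, and Scarf1, a receptor for C1q-coated cells, from 25.4 ± 1.12 to 51.4 ± 1.27 CPM (SD, n = 3 each). Olr1 (-1.09), Cd14 (-0.18) and Trem2 (-0.07) fell by log2 change. Under the assumed spread, 6 of the 14 (42.9%) passed.

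Other bridging proteins and opsonins split, with 5 of 13 tested genes higher and 4 lower (median log2 change 0.03). Complement C3 rose from 145 ± 6.97 to 435 ± 7.46 CPM (SD, n = 3 each) and Calr, the calreticulin that Lrp1 recognises, by a log2 change of 0.39. Thrombospondin Thbs1, which bridges dying cells to Cd36 and alpha-v-beta-3, fell from 1061 ± 31.1 to 750 ± 13.0 CPM, and the galectin Lgals3 from 3961 ± 39.5 to 2854 ± 91.8 CPM. Ptx3 (-0.89) and C1qa (-0.83) fell as well, while C1qc rose by 0.13 and C1qb did not pass (0.02).

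In the machinery that Elmo1 serves, 8 of 21 genes (38.1%) rose and 4 (19.0%) fell, the latter a share near that of all tested genes (median log2 change 0.07). Dock2, the Elmo partner of blood cells, rose from 123 ± 6.20 to 178 ± 0.819 CPM, the GTPase Rac2 from 208 ± 10.4 to 271 ± 2.62 CPM, and Plcg2 by a log2 change of 0.39. Ptk2 (-0.18), Rac1 (-0.16), Rhoa (-0.07) and Crk (-0.07) fell. Dock1 (0.12), Elmo2 (0.09), Elmo3 (0.60) and Gulp1 (-0.10) did not pass (edgeR adjusted p = 0.0825, 0.181, 0.180 and 0.711). Fewer passed with DESeq2 (6, each of them higher, where 31.5% of all tested genes passed), with the assumed spread (3, or 14.3%, the share of all tested genes), without knockout replicate 1 (7) and without wild-type replicate 1 (7).

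Genes of TAM signalling rose in 8 of 11 and fell in 1 (median log2 change 0.25). The cytokine signalling inhibitors Socs3, from 111 ± 0.715 to 158 ± 6.21 CPM, and Socs1, from 7.75 ± 0.446 to 11.3 ± 0.338 CPM, were among the rises, with the kinase subunit Pik3cd (0.67) and the interferon receptor chain Ifnar1 (0.34). Its partner Ifnar2 fell by 0.14 on the log2 scale. Genes for cutting receptors off the cell surface rose in 4 of 6 tested. Adam17, the protease known to shed Mertk, rose from 323 ± 4.95 to 449.6 ± 11.0 CPM (log2 change 0.48, SE 0.03), and Adam8 by 0.28, while the inhibitor Timp3 fell by 0.35. Rhbdf2 of the same list had overlapping groups and did not pass, with a log2 change of 0.06 (edgeR adjusted p = 0.364). Shedding itself was not measured.

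Genes of the response to engulfed cells were split, with 6 of 16 tested genes higher and 7 lower (median log2 change 0.02). Nr1h3, the liver X receptor alpha known to induce Mertk, rose by 0.54, but its cholesterol export targets Abca1 (-0.47) and Abcg1 (-0.37) and its partner Rxra (-0.42) fell. The kinase Sgk1 fell from 511 ± 9.40 to 265 ± 6.66 CPM, and the transcription factor Maf rose from 145 ± 2.04 to 284 ± 4.30 CPM (SD, n = 3 each). Abca7 (0.51), Pparg (0.48), Ucp2 (0.17) and Slc2a1 (0.16) were the remaining rises.

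**Figure D5:**
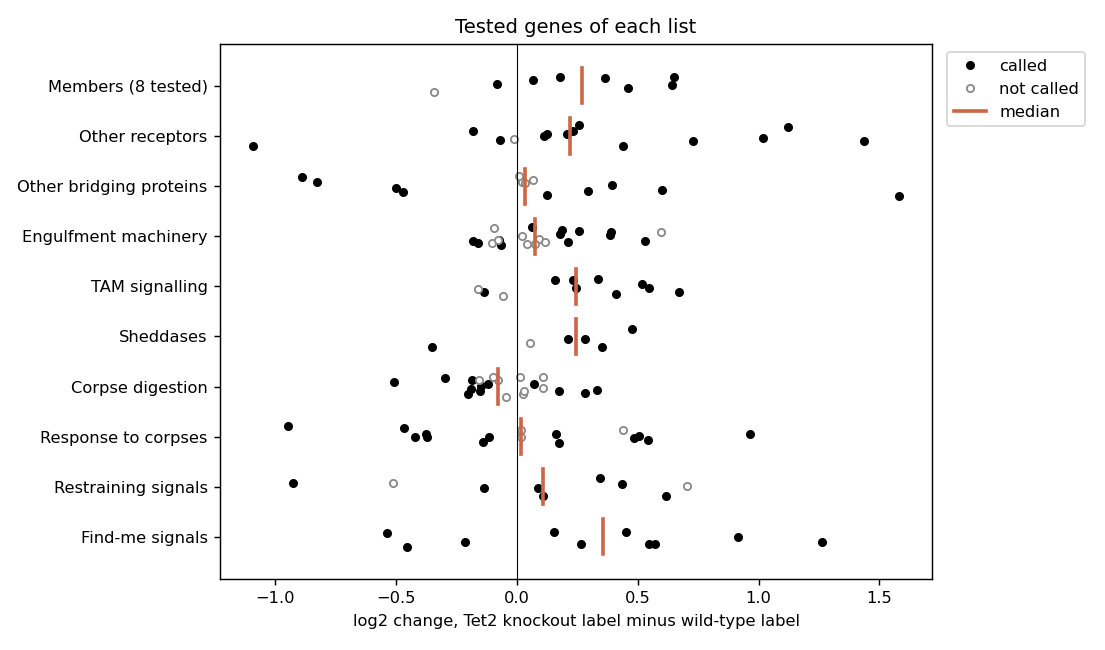
Each point is a tested gene at its log2 change (horizontal axis, knockout-labelled minus wild-type-labelled libraries), in rows by list, filled where the edgeR adjusted p was under 0.05, with the median of each list as a bar. The medians of find-me signals (0.36), the members (0.27), TAM signalling (0.25), sheddases (0.25) and other receptors (0.22) lie furthest to the right of 0. Those of bridging proteins (0.03) and of the response to corpses (0.02) lie near it.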

How the data were processed

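The authors deposited raw counts of reads per gene for 6 libraries. Per the submitters' processing notes, fastp, STAR and featureCounts were used with the build mm10; versions and the strand setting are not given in the sources used here. The test was that of edgeR 4.0.16 under R 4.3.3: filterByExpr (minimum count 10) kept 13175 of 54532 genes, scaling was by TMM, and the robust quasi-likelihood test had genotype as its only term, with Benjamini-Hochberg adjustment over all tested genes and a threshold of 0.05. Limma 3.58.1 and DESeq2 1.42.0 served as alternatives. The test was tried on simulated counts with known changes. Figures were drawn in Python 3.11.15 with matplotlib 3.10.9. Gene coordinates are those of the deposited table, equal to GENCODE M21 for all 9 genes; upstream sequences are from RefSeq (GRCm38.p6). No strand is marked by the kit as labelled, so overlapping genes were checked. The members and lists were chosen with earlier results of these data known. Named beside the members are the 3 genes of each list with the smallest p and those that changed against the majority of their list. Calr, C1qb, C1qc, Itgb5, Socs1, Rhbdf2, Abcg1, Rxra, the Elmo and Dock genes other than Dock2, Gulp1 and single markers were named after their values were seen. So were the falls of corpse digestion other than Atg12. Removing GC and length trends, and transcript length for the ratios and shares, were added after the data had been seen. P-values from 3 against 3 by exact permutation cannot go below 0.1.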

Additional observations from a re-analysis of the deposited data

How the results depend on the processing

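Every tested member kept its direction in all 16 alternatives, and Mertk, Lrp1, Gas6 and Elmo1 also kept their calls. The number of members called was 5 to 6 when 1 library was left out, 6 with RLE scaling, upper-quartile scaling, DESeq2 or limma-voom, and 5 once trends with GC content and length had been taken out. The assumed coefficient of variation of 0.1 cut the counts most, since it sets the spread above the measured one. It left 1885 of all 13175 tested genes (14.3%). By list, 4 of 8 members (50%), 6 of 14 other receptors (42.9%) and 7 of 13 other bridging proteins (53.8%) passed. So did 9 of 16 genes of the corpse response (56.2%), 4 of 9 restraining signals (44.4%) and 6 of 10 find-me genes (60%). For sheddase genes it was 3 of 6 (50%) and for TAM signalling 5 of 11 (45.5%). The engulfment machinery kept 3 of 21 (14.3%) and corpse digestion 1 of 21 (4.76%). DESeq2 gave 6 genes of the engulfment machinery, and the cause was not tested. Leaving out 1 library gave 7 to 11 genes of that list and 4725 to 5177 of all genes. The log2 ratio of Axl to Mertk then differed by -0.61 to -0.56 and that of Gas6 to Pros1 by 0.23 to 0.33. Of 176 counts under an alternative, 164 were within 1.5 times the reported one.

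Same-numbered libraries did not deviate together (r across genes of 0.0039, -0.0053 and -0.0201), and neither did differently numbered ones (-0.0144 to 0.0203). With so small a spread, which may be technical, these r cannot decide whether the numbers pair the samples. With the replicate number as a block 7 members and 5259 of all genes passed, and the paired exact p of both ratios was 0.25, the smallest possible with 3 pairs. Depth limits Tyro3 and Timd4, with fewer than 100 counts in each library.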

Other observations

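Genes that restrain engulfment rose in 5 of 9 tested and fell in 2 (median log2 change 0.11; 40.9% of all tested genes passed). Sirpa, the receptor for the don't-eat-me protein Cd47, rose from 1459 ± 6.03 to 1972 ± 8.40 CPM and the phosphatase Ptpn6 that it recruits from 211 ± 7.79 to 323 ± 5.99 CPM (SD, n = 3 each). Cd24a fell by 0.93 and the phosphatase Ptpn11 by 0.13 on the log2 scale. Cd24a and Sirpa have close copies in the mouse genome that can share reads, so their values are uncertain. Genes of find-me signals, which draw phagocytes to dying cells, rose in 7 of 10 (70%) and fell in 3 (30%; median log2 change 0.36). Of all tested genes 21.6% rose and 19.2% fell. Without wild-type replicate 1 or 3, 8 of these 10 passed, where 4869 and 4872 of all genes did. The nucleotide receptor P2ry6 rose by 0.55 and the fractalkine receptor Cx3cr1 from 4.86 ± 0.226 to 11.7 ± 1.09 CPM, while the sphingosine phosphate receptor S1pr1 (-0.45), the kinase Sphk1 (-0.54) and the nucleotide receptor P2ry2 (-0.22) fell.

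Of the genes that digest the corpse, 4 of 21 (19.0%) rose and 8 (38.1%) fell, where 21.6% of all tested genes rose and 19.2% fell (median log2 change -0.08). Cybb, the catalytic subunit of the phagocyte oxidase, rose from 1434 ± 55.1 to 1619 ± 9.21 CPM, the transporter Slc36a1 by 0.33, Rubcn, needed for LC3-associated phagocytosis, by 0.28, and Lamp2 by 0.07 on the log2 scale. The falls were Atg12 (-0.30), Map1lc3a (-0.51), Rab5a (-0.20), Slc29a3 (-0.19), Atg5 (-0.19), Lamp1 (-0.15), Map1lc3b (-0.15) and Becn1 (-0.12). Under the assumed spread 1 of these 21 genes (4.76%) passed, against 14.3% of all tested genes.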
